A study of Mus musculus with 16 samples.

Results

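The desaturases and elongases that build polyunsaturated and other long fatty acid chains were followed in mouse liver as a set of 9 genes, chosen by name: Fads1, Fads2, Fads3, Fads6, Elovl1, Elovl2, Elovl3, Elovl5 and Scd2. All 9 were found among the 46078 genes of the count table, and all 9 passed the filter on low counts that left 15075 genes for testing. Liver RNA-seq libraries came from male C57BL6/J mice (spelled C56B6/J in the sample labels) that were young adults when the diets began. For 16 weeks they ate either control chow (the control diet, CD) or chow rich in fat (the high-fat diet, HFD), and livers were taken with food freely available or after 16 h without it. The 4 groups, CD fed, CD fast, HFD fed and HFD fast, held 4 libraries each, 1 per mouse, with no genetic change and no drug in any group. Library totals lay between 41364448 and 57583153 counts, with Fads2 at 21402 to 45320 counts per library and Fads3, the rarest member, at 74 to 144.

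The essential fatty acids linoleic and alpha-linolenic acid cannot be made by mammals and are lengthened and desaturated mainly in the liver. FADS2 introduces the first double bond of this route, ELOVL5 lengthens the product, FADS1 introduces the next double bond to give arachidonic and eicosapentaenoic acid, and ELOVL2 with ELOVL5 extends these towards docosahexaenoic acid. FADS3 is a related desaturase that acts on sphingoid bases, and the substrate of FADS6 is not established. ELOVL1 and ELOVL3 lengthen saturated and monounsaturated chains, and SCD2 is a stearoyl-CoA desaturase that makes monounsaturated chains, so that 3 of the 9 genes serve fatty acids other than the polyunsaturated ones. SREBP-1c, which insulin activates, and PPARα, which fasting activates, are known regulators of several of these genes.

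Of the 9 genes, 5 lie on chromosome 19 (GRCm38 coordinates, GENCODE vM21). Fads3 (10041569 to 10060110, plus strand), Fads2 (10062765 to 10101746, minus strand) and Fads1 (10182888 to 10196877, plus strand) form a cluster in which Fads1 and Fads2 are transcribed away from each other from start sites 81.14 kb apart, and Fads2 ends 2.65 kb from the end of Fads3. Scd2 (44293674 to 44306864, plus strand) lies 87.59 kb from its paralog Scd1, and Elovl3 spans 46131897 to 46135694 on the plus strand. The others are dispersed: Elovl1 at 118428093 to 118432953 on chromosome 4 (plus), Elovl5 at 77917364 to 77984519 on chromosome 9 (plus), Fads6 at 115279622 to 115297663 on chromosome 11 (minus) and Elovl2 at 41182381 to 41220405 on chromosome 13 (minus). All are protein-coding genes. Elovl1 shares 53 exonic bases (1.94% of its exons) with Cdc20 on the opposite strand and Elovl3 shares 10 bases with Pitx3, and since the strand setting of the counting step is not given in the sources used here, a small part of their counts could belong to the other strand.

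Upstream sequence from RefSeq (GRCm38.p6) was matched for 6 of the 9 members, Fads2, Fads3, Fads6, Elovl1, Elovl2 and Elovl5, and there was no entry for Fads1, Elovl3 and Scd2. The 250 bases before the start site (the outer of 2 start sites for Elovl2 and Elovl1) are given for the 2 elongases of the polyunsaturated route, for which no fall with fasting was detected, and for Elovl1, whose mRNA was lower in CD fast livers. Capitals mark matches, on either strand, to 4 motifs that were found among the 6 searched: the NF-Y box CCAAT, the GC box GGGCGG, the E-box CACGTG and the nuclear receptor core site AGGTCA. Elovl5 is read on the plus strand of chr9:77917115-77917364, Elovl2 on the minus strand of chr13:41220404-41220653 and Elovl1 on the plus strand of chr4:118427843-118428092.
Elovl5: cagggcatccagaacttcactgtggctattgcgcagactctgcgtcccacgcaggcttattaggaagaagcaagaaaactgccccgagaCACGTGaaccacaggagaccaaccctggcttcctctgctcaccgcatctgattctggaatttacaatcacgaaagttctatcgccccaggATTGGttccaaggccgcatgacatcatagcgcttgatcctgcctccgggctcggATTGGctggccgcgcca
Elovl2: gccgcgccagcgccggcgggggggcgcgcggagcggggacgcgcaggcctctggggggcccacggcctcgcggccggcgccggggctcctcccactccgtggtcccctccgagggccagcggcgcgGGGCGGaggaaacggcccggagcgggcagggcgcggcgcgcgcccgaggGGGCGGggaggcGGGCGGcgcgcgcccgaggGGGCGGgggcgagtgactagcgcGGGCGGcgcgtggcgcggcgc
Elovl1: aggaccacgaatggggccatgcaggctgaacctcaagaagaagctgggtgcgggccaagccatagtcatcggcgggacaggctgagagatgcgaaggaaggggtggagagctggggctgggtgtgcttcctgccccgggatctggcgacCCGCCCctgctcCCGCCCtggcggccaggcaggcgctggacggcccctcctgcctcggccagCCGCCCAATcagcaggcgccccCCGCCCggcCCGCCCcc
Elovl5 held 2 NF-Y boxes and 1 E-box, Elovl2 held 5 GC boxes and no other match, and Elovl1 held 5 GC boxes and 1 NF-Y box, the latter overlapping a GC box. The G and C content was 55.6% for Elovl5, 87.2% for Elovl2 and 72.0% for Elovl1. The window before Fads2 held 1 GC box, that before Fads3 held 2 GC boxes and 2 NF-Y boxes, and that before Fads6 held 1 GC box and 2 nuclear receptor core sites. The windows of Fads2 and Fads6 overlapped annotated exons by 243 and 101 bases. A sterol regulatory element in the form TCACNCCAC, and a repeat of AGGTCA with 1 base between the copies, were searched as well and had no match in these windows. Among the upstream windows of all 32851 RefSeq entries of the same length, the NF-Y box was present in 33.85%, the GC box in 32.74%, the E-box in 6.02%, the core site in 14.02%, the sterol regulatory element in 1.05% and the repeat in 0.03%.

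Levels of different genes were compared after division by exon length, as CPM (counts scaled to the library total after its TMM correction) per kb of exon. In CD fed livers Elovl3 reached 220.7 ± 78.8 CPM per kb (mean ± SD, n = 4, here and for other group values), Elovl5 200.4 ± 59.4, Fads2 173.5 ± 47.5, Elovl2 162.3 ± 68.4 and Fads1 119.9 ± 28.4. The libraries of these 5 genes overlapped between neighbours in that order. Fads6 followed at 26.8 ± 1.1 CPM per kb, Elovl1 at 12.96 ± 0.79, Scd2 at 1.45 ± 1.01 and Fads3 at 0.654 ± 0.033, each without overlap with the next. In CD fast livers the order of the abundant genes changed. Elovl5 (246.3 ± 58.5 CPM per kb), Elovl2 (239.3 ± 34.0) and Fads2 (204.6 ± 43.0) overlapped one another, and all 12 of their values lay above every value of Fads1 (72.8 ± 13.2) and Elovl3 (64.6 ± 21.7), 2 genes which overlapped each other. In HFD fed livers the same 5 genes lay between 104.7 and 193.5 CPM per kb on average, and in HFD fast livers Fads1 (72.7 ± 8.8) and Elovl3 (58.3 ± 22.3) again stood below Fads2 (203.1 ± 32.4), Elovl5 (178.1 ± 48.3) and Elovl2 (160.3 ± 41.9). Per length, the mRNAs of Fads1, Fads2, Elovl2 and Elovl5 stood far above that of Fads3 in all 4 groups.

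**Figure D1:**
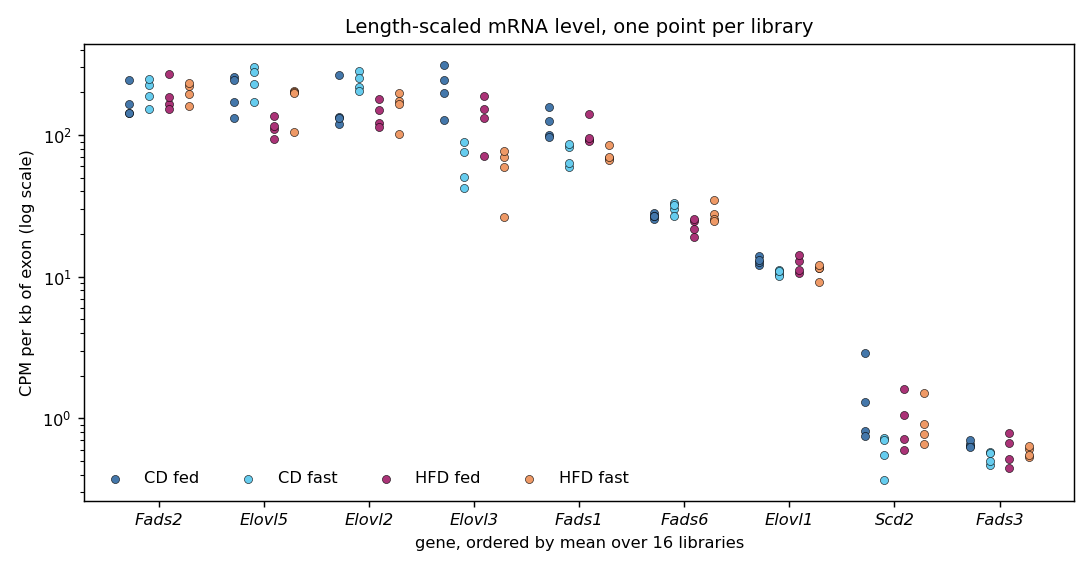
CPM per kb of exon (logarithmic vertical axis) of the 9 genes, ordered by their mean over 16 libraries, with 1 point per library coloured by group. The first 5 genes lie near 100 CPM per kb, Fads6 and Elovl1 lie lower, and Scd2 and Fads3 lie near 1, and the fasted points of Elovl3 and Fads1 lie below most of their fed points.

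Fasting on the control diet, the comparison that asks how these enzymes respond to food withdrawal without the high-fat diet, lowered the mRNA of 4 members and raised none. By edgeR's quasi-likelihood test with Benjamini-Hochberg adjustment over 15075 genes (the test behind all adjusted p of single genes), Elovl3, Scd2, Fads1 and Elovl1 fell. Of all genes tested, 11.5% were lower and 13.7% higher in this comparison. Of the 4, only Fads1 belongs to the polyunsaturated route itself, and the others are the 3 genes of saturated and monounsaturated chains. The 5 members without a call were Fads2, Elovl2, Elovl5, Fads6 and Fads3. The median log2 fold change of the 9 genes was -0.28, beside -0.01 over all genes.

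Elovl3, which makes very long saturated and monounsaturated chains and is under circadian and androgen control in mouse liver, had the largest change of the members. Its level was 619.5, 484.5, 250.5 and 389.1 CPM in the CD fed libraries and 176.2, 83.7, 149.5 and 100.6 CPM in the CD fast libraries. Every fasted library lay below every fed one. The log2 fold change was -1.77 ± 0.37 (SE, n = 4 per group), a fall to 29.2% of the fed level (adjusted p = 0.00288). This call held when any 1 of the 16 libraries was left out, with an adjusted p of at most 0.0122.

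Fads1, the desaturase of the later step, had 760.2, 602.0, 482.7 and 463.2 CPM in CD fed livers. In CD fast livers it had 286.5, 395.2, 306.4 and 413.8 CPM, again with no overlap. The log2 fold change was -0.72 ± 0.18 (60.7% of the fed level, adjusted p = 0.00976), and the call held without any 1 of the 16 libraries, with log2 values between -0.82 and -0.56. The 7 hepatocyte markers, all detected, were also compared between feeding states. Their sum was 106800 to 138500 CPM in CD fed and 89820 to 111100 CPM in CD fast livers, which overlapped, and 110900 to 139200 CPM in HFD fed and 72020 to 103500 CPM in HFD fast livers, which did not. Of the 7, 1 was lower with fasting in CD (11.5% of all genes), 2 in HFD (4.07%) and 4 in the average over diets (13.6%). The part of this in the lower Fads1 and Elovl3 levels was not tested.

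Scd2 was scarce, with 85 to 872 counts per library. Its level was 15.89, 7.12, 4.48 and 4.13 CPM in CD fed livers and 2.01, 3.02, 3.997 and 3.85 CPM in CD fast livers. The groups did not overlap, but the distance between the lowest fed and the highest fasted library was small and the first fed library stood high. The log2 fold change was -1.29 ± 0.43 (adjusted p = 0.0374). Without library CD fed 1 it was -0.70 (adjusted p = 0.187), and the call was also lost without CD fast 1, 2 or 4 or CD fed 2 (adjusted p from 0.0547). Further losses came with limma-voom (0.0894), with a block for the replicate number (0.059) and in a fit of only the groups compared (0.0547). In bulk liver, fewer cells of a type and less RNA per cell cannot be told apart. The summed level of 7 macrophage markers, all detected, was 266.3 to 457.4 CPM in CD fed and 175.3 to 283.6 CPM in CD fast livers. Of the 7 genes, 3 were lower by the same test, beside 11.5% of all genes. CD fed 1 had both the highest sum and the highest Scd2 level of the 16 libraries. Endothelial markers (5 genes, all detected) summed to 198.1 to 223 CPM in CD fed and 147.3 to 193.6 CPM in CD fast livers, without overlap. Of these 5, 2 were called lower, beside the same 11.5%. Stellate cell markers (6 genes, all detected) summed to 226.4 to 299.5 CPM in CD fed and 138.8 to 231 CPM in CD fast livers. The part of these cells in the Scd2 result was not tested. Of the 50-base stretches in Scd2 transcripts, 2.66% are identical in Scd1, the main hepatic stearoyl-CoA desaturase. Scd1 averaged 17830 CPM in CD fed and 2294 CPM in CD fast livers, and the part of shared reads was not tested.

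Elovl1, an elongase of saturated chains used in membrane sphingolipids, had 37.9, 32.7, 34.7 and 35.98 CPM in CD fed and 28.4, 30.4, 27.7 and 29.9 CPM in CD fast livers, without overlap. The log2 fold change was small, -0.28 ± 0.10 (adjusted p = 0.0451). The call was lost when any of 10 libraries was left out, all but CD fed 2, HFD fast 2 and 4 and HFD fed 1, 3 and 4 (adjusted p 0.0528 to 0.116, log2 -0.30 to -0.25), and with total count scaling (0.0523), upper quartile scaling (0.071) or no filter on low counts (0.0563).

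The enzymes on either side of Fads1 in the polyunsaturated route did not follow it. Fads2 had 800.2, 546.8, 470.9 and 468.7 CPM in CD fed and 504.7, 749.1, 618.5 and 824.7 CPM in CD fast livers. Its log2 difference was 0.24 ± 0.21 (95% interval -0.23 to 0.71, adjusted p = 0.444). Elovl5 had 900.4, 858.2, 601.9 and 462.6 CPM against 1069, 983.9, 602.9 and 813.7 CPM (log2 difference 0.30 ± 0.24, interval -0.23 to 0.83, adjusted p = 0.395), a difference that was 0.14 without CD fed 4 and 0.18 without CD fast 1. In both genes the fed and fasted libraries overlapped, and a fall of the size seen in Fads1 (-0.72) lay outside both intervals.

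Elovl2, the elongase of the longest polyunsaturated chains, had 1049, 528.8, 473.2 and 524.7 CPM in CD fed and 868.4, 1117, 815.7 and 995.2 CPM in CD fast livers. Of the 4 fed libraries, 3 lay below all fasted ones, while CD fed 1 lay among them. The log2 difference was 0.56 ± 0.25 (adjusted p = 0.114). Without CD fed 1 it was 0.90 and passed the test (adjusted p = 0.00808). Fads6 had 168.8 to 187.2 CPM in fed and 179.9 to 220.9 CPM in fasted livers (log2 difference 0.19 ± 0.11, adjusted p = 0.238). Fads3 had 2.38 to 2.66 and 1.77 to 2.19 CPM (log2 difference -0.31 ± 0.16, adjusted p = 0.17), with no overlap between the groups but without a call.

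**Figure D2:**
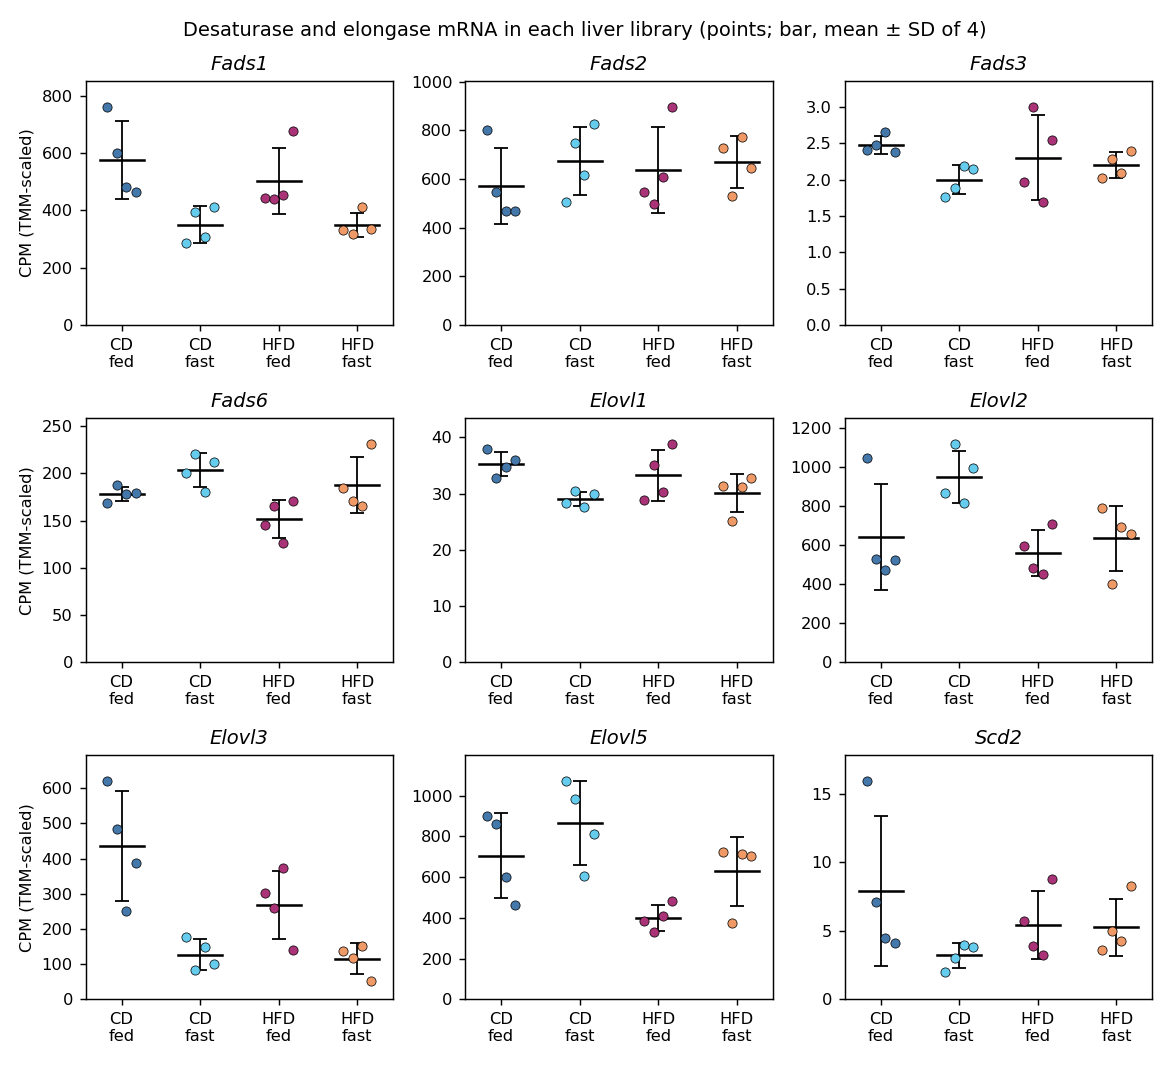
CPM (vertical axes, each starting at 0) of each gene in the 4 groups, with 1 point per library in the order of the replicate numbers and bars for the mean ± SD of 4. Elovl3 and Fads1 are lower in CD fast than in every CD fed library, Fads2 shows overlapping groups, and CD fed 1 is the highest CD fed library for Fads1, Fads2, Elovl1, Elovl2, Elovl3, Elovl5 and Scd2.

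Fasting on the high-fat diet asks whether the same enzymes respond after long feeding of fat. Only Elovl3 passed the test, against a share of 4.07% of genes lower and 4.78% higher. Elovl3 had 301.6, 259.9, 372.9 and 139.6 CPM in HFD fed and 138.4, 117.8, 151.9 and 52.5 CPM in HFD fast livers. The fed library HFD fed 4 lay within the fasted range. The log2 fold change was -1.22 ± 0.36 (adjusted p = 0.0468). This call rested on a narrow margin and was lost without any of 11 libraries, all but CD fast 1 and 2, CD fed 1 and 3 and HFD fed 4 (adjusted p 0.0519 to 0.131, log2 -1.39 to -0.98), and in a fit of only the groups compared (0.0739).

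Fads1 had 443.5, 439.8, 455.2 and 675.9 CPM in HFD fed and 331.8, 318.8, 412.5 and 336.7 CPM in HFD fast livers. All fasted libraries lay below all fed ones. The log2 difference of -0.53 ± 0.18 (95% interval -0.92 to -0.13) had an adjusted p of 0.0822 with edgeR and of 0.038 with DESeq2, and was -0.35 without HFD fed 4. Elovl5 had 386.3, 328.5, 408.0 and 481.3 CPM in HFD fed livers and 723.2, 372.6, 713.0 and 701.0 CPM in HFD fast livers. Of the fasted libraries, 3 lay well above the fed range and HFD fast 2 lay inside it. The log2 difference was 0.65 ± 0.24 (adjusted p = 0.11), and 0.82 without HFD fast 2 (adjusted p = 0.039). That library had the highest summed level of 5 adipocyte markers, 70.3 CPM, beside 0.356 to 15.1 CPM in the other 15 libraries, and the part of this in its Elovl5 level was not tested.

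The remaining members had no call with fasting on HFD in the edgeR fit. Fads2 had 499.4 to 895.3 CPM in fed and 530.6 to 774.0 CPM in fasted livers (log2 difference 0.07 ± 0.21, interval -0.40 to 0.54). Elovl2 had 453.1 to 710.9 and 401.3 to 790.0 CPM (0.18 ± 0.25), Fads6 125.9 to 170.5 and 165.6 to 230.7 CPM (0.31 ± 0.11, adjusted p = 0.101, and 0.20 without HFD fast 4, adjusted p = 0.269), Elovl1 28.8 to 38.8 and 25.2 to 32.8 CPM (-0.14 ± 0.10), Fads3 1.69 to 2.999 and 2.02 to 2.40 CPM (-0.07 ± 0.16) and Scd2 3.25 to 8.79 and 3.62 to 8.28 CPM (-0.04 ± 0.42). The median over the 9 genes was -0.04, beside 0.01 over all genes.

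**Figure D3:**
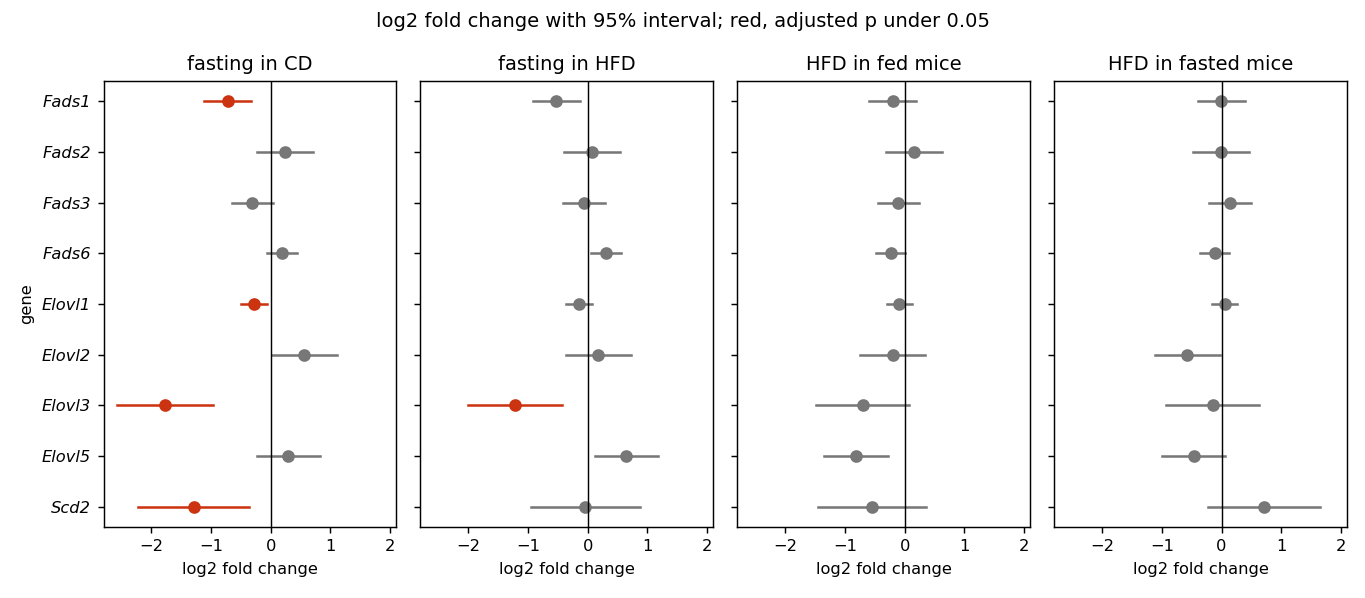
Log2 fold change (horizontal axes, first group minus second) of the 9 genes in 4 comparisons, with 95% intervals from the standard error at 12 residual degrees of freedom. Red marks an adjusted p under 0.05: 4 genes with fasting in CD, Elovl3 with fasting in HFD and none with HFD in fed or fasted mice.

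Whether the response to fasting differed between the diets was tested by the diet by fasting interaction. None of the 9 members passed, with edgeR, DESeq2 or limma-voom, and none had an unadjusted p under 0.05, while 1.23% of all genes had a positive and 1.36% a negative interaction. Scd2 came nearest, with a log2 difference between the responses of 1.254 ± 0.60 (interval -0.05 to 2.56, adjusted p = 0.253), and 0.66 without CD fed 1 (adjusted p = 0.496). For Elovl3 it was 0.55 ± 0.51, for Elovl5 0.35 ± 0.34, for Fads1 0.19 ± 0.26, for Fads2 -0.17 ± 0.30, for Elovl2 -0.38 ± 0.35, for Fads3 0.24 ± 0.23, for Elovl1 0.14 ± 0.14 and for Fads6 0.12 ± 0.16. Single libraries moved several of these values: without CD fed 1 Elovl2 was at -0.72, Elovl3 at 0.33 and Elovl5 at 0.21, without HFD fed 4 Elovl2 was at -0.25 and Elovl3 at 0.34, without HFD fast 2 Elovl2 was at -0.22 and Elovl5 at 0.53, and without CD fast 3 Elovl5 was at 0.20. The intervals of these genes, such as -0.36 to 0.75 for Fads1, do not show that the 2 diets gave the same response.

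Since no interaction was detected, the fasting responses on the 2 diets were also averaged, a comparison chosen after the single values were seen. Elovl3 (log2 -1.497 ± 0.257, adjusted p = 0.000608) and Fads1 (-0.62 ± 0.13, adjusted p = 0.0023) fell and remained called without any 1 of the 16 libraries. Elovl1 fell (-0.21 ± 0.07, adjusted p = 0.0304) and Fads6, whose product has no established substrate, rose (0.25 ± 0.08, adjusted p = 0.0293). Elovl5 had a larger positive value just outside the threshold (0.47 ± 0.17, interval 0.10 to 0.85, adjusted p = 0.0508), and was called higher with DESeq2, with a filter of 1 CPM in 4 libraries, and without CD fast 3, CD fed 1 or 2, HFD fast 2 or HFD fed 4. Elovl2 (0.37 ± 0.18, adjusted p = 0.131) was called without CD fed 1. Over all genes, 13.6% were lower and 15.2% higher in this average. The Elovl1 call was lost without CD fast 1, CD fed 1 or 4 or HFD fed 2 or 4 (adjusted p up to 0.0601) and that of Fads6 without CD fast 2 or 4, CD fed 1, HFD fast 4 or HFD fed 1 or 3 (up to 0.0594). Both were lost with total count scaling (0.0674 and 0.0527), Elovl1 also with upper quartile scaling (0.0616) and Fads6 without the filter (0.0525).

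The high-fat diet itself was compared with the control diet in fed and in fasted mice. In fed mice no member passed the edgeR test, 1 had an unadjusted p under 0.05, and DESeq2 called 1 and limma-voom called none, beside 4.22% of all genes lower and 3.28% higher. That 1 gene was Elovl5. Its 4 HFD fed libraries (386.3, 328.5, 408.0 and 481.3 CPM) lay below 3 of the 4 CD fed libraries, and only CD fed 4, at 462.6 CPM, fell within their range. The log2 difference was -0.82 ± 0.24 (56.8% of the CD level, interval -1.35 to -0.28, adjusted p = 0.0544 with edgeR and 0.0121 with DESeq2). It passed the edgeR test without CD fed 4, CD fast 3 or HFD fast 2 (adjusted p 0.0286 to 0.0485).

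In fasted mice no member passed either with edgeR, DESeq2 or limma-voom, beside 4.65% of all genes lower and 3.05% higher, and 1 had an unadjusted p under 0.05. This was Elovl2, with 868.4, 1117, 815.7 and 995.2 CPM in CD fast and 790.0, 401.3, 695.4 and 656.7 CPM in HFD fast livers. The groups did not overlap (log2 difference -0.58 ± 0.25, adjusted p = 0.158). Elovl5 in fasted livers was lower on HFD by a log2 difference of -0.47 ± 0.24 (adjusted p = 0.239), and of -0.29 without HFD fast 2 (adjusted p = 0.463). Averaged over feeding states, also a comparison chosen after the values were seen, Elovl5 was the 1 member with a call, lower on HFD (log2 -0.64 ± 0.17, 64.1% of the CD level, adjusted p = 0.0255), where 7.02% of all genes were lower and 4.98% higher. That call was lost without CD fast 1 (adjusted p = 0.0514) or CD fed 2 (0.0555) and with total count scaling (0.0511).

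The desaturases of the polyunsaturated route had no call between diets. The log2 difference of Fads1 was -0.20 ± 0.18 (95% interval -0.59 to 0.20) with HFD in fed mice and 0.00 ± 0.18 in fasted mice, and that of Fads2 was 0.16 ± 0.21 and -0.01 ± 0.21. The 95% interval for Fads1 in fasted mice was -0.40 to 0.39, so that a moderate difference in either direction was not detectable with 4 libraries per group. Fads3 (log2 -0.11 ± 0.16 in fed and 0.14 ± 0.16 in fasted mice), Elovl1 (-0.09 ± 0.10 and 0.05 ± 0.10) and Scd2 (-0.54 ± 0.42 and 0.71 ± 0.43) had opposite signs in the 2 states, with overlapping libraries in each. For Scd2 the value in fed mice was 0.05 without CD fed 1 and -0.88 without HFD fed 4, and that in fasted mice was 0.41 without HFD fast 4, so that the opposite signs rested on CD fed 1. The log2 difference of Elovl3 with HFD was -0.70 ± 0.36 in fed and -0.15 ± 0.36 in fasted mice, that of Fads6 was -0.23 ± 0.11 and -0.11 ± 0.11, and that of Elovl2 in fed mice was -0.20 ± 0.25. The median over the 9 genes was -0.20 in fed and -0.01 in fasted mice, beside 0.01 over all genes in both.

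The 2 desaturases of the polyunsaturated route varied together from mouse to mouse and yet parted with feeding state. After subtraction of group means, log2 Fads1 and log2 Fads2 correlated over 16 libraries with Pearson's r = 0.94 and Spearman's rho = 0.90. Each had a permutation p of 1e-05 with shuffling within groups, the smallest that 100000 resamples can give, and an adjusted p of 0.00036 over the 36 pairs of members. Without HFD fed 4 and CD fed 1, the libraries farthest from the median, r was 0.88. Without subtraction of the group means r was 0.28. Elovl2 followed both desaturases within groups (r = 0.81 with Fads2 and 0.72 with Fads1, adjusted p = 0.0272 for each, rho 0.70 and 0.68, adjusted p of rho 0.0544 and 0.0493, and r = 0.72 and 0.67 without CD fed 1 and HFD fast 2). Pearson's r of 1 further pair passed, Elovl3 and Fads6, which were opposed (r = -0.78, adjusted p = 0.0272, rho -0.79, adjusted p = 0.0308, r = -0.59 without HFD fast 4 and HFD fed 4). These 2 libraries had the lowest Elovl3 level of their groups and the highest stellate marker sums, 398.1 and 407.1 CPM beside 138.8 to 299.5 CPM in the other 14, and the part of this in the Elovl3 values was not tested. These values share each library's scaling.

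The ratio of Fads1 to Fads2 counts within a library needs no scaling between libraries and was chosen after the values were seen. This ratio separated fasted from fed livers with little spread, but it did not separate the diets in fasted mice. It was 0.950, 1.10, 1.03 and 0.988 in CD fed livers (mean 1.02 ± 0.06) and 0.568, 0.528, 0.495 and 0.502 in CD fast livers (0.523 ± 0.033). In HFD fed livers it was 0.814, 0.881, 0.746 and 0.755 (0.799 ± 0.062), and in HFD fast livers 0.456, 0.601, 0.533 and 0.522 (0.528 ± 0.059). All 8 fasted values lay below all 8 fed values, and the HFD fed values lay below the CD fed values. On the log2 scale the ratio differed by -0.96 between fasted and fed livers in CD, by -0.60 in HFD, and by -0.35 between HFD fed and CD fed livers, each with a two-sided exact permutation p of 0.0286, the smallest for 4 against 4 libraries, and 0.0572 after adjustment over 12 tests. Between the diets in fasted mice the difference was 0.01 (exact permutation p = 0.971). Over both diets, with labels exchanged only within a diet, fasting changed the log2 ratio by -0.78 (exact permutation p = 0.000408, the smallest of 4900 arrangements, adjusted p = 0.00245 over 6 tests). The adjustment does not cover the choice of these genes after their values were seen. Leaving out single libraries kept the difference between -0.998 and -0.918 in CD and between -0.67 and -0.53 in HFD. The ratio shows unequal change of the 2 mRNAs, and it does not say which of them moved. In CD, Fads1 itself fell by the test above and Fads2 had no call.

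**Figure D4:**
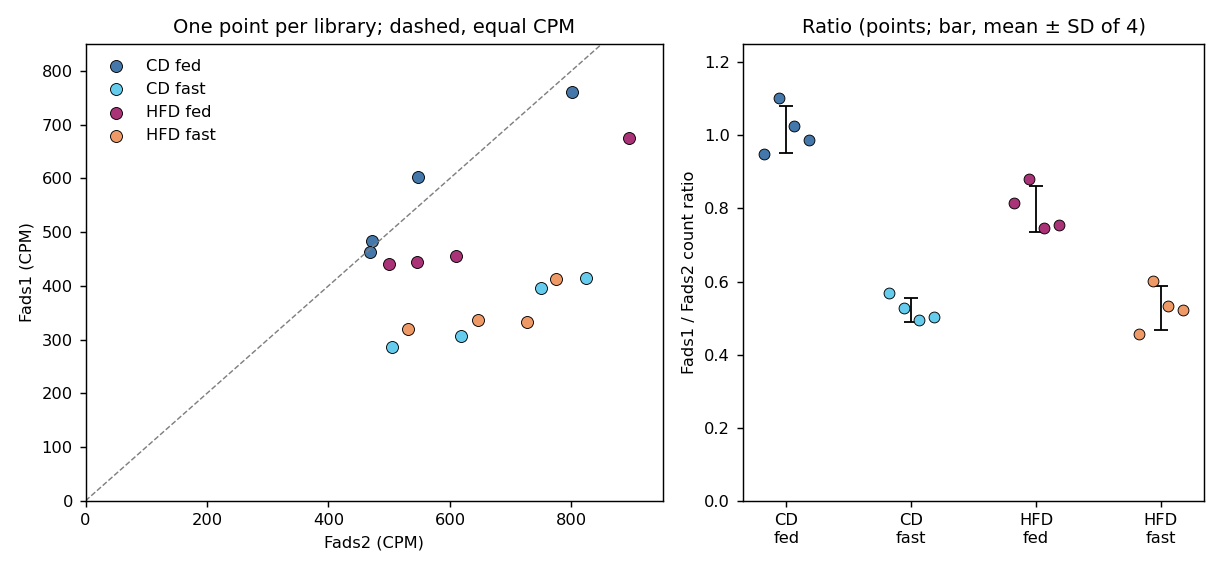
Left, Fads1 against Fads2 (both in CPM, linear axes) with 1 point per library and a dashed line of equal level; right, the Fads1 to Fads2 count ratio per library with mean ± SD of 4. Fasted libraries of both diets fall on a line at a ratio near 0.5, CD fed libraries lie near 1, and HFD fed libraries lie between them at 0.746 to 0.881.

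The ratio of Fads1 to Elovl2 was also lower in fasted livers, from 0.941 ± 0.178 in CD fed to 0.369 ± 0.036 in CD fast livers and from 0.901 ± 0.113 to 0.580 ± 0.159 on HFD. Its log2 change with fasting over both diets was -1.001 (exact permutation p = 0.000816, adjusted p = 0.00245). Within HFD alone the fed and fasted libraries overlapped (-0.67, exact permutation p = 0.0571, adjusted p = 0.0979). In fasted mice every HFD library lay above every CD library (0.62, exact permutation p = 0.0286, adjusted p = 0.0572), whereas the Fads1 to Fads2 ratio overlapped there. The ratio of the elongases Elovl5 and Elovl2 was 1.16 ± 0.36 and 0.917 ± 0.217 in fed and fasted CD livers, 0.725 ± 0.118 and 0.984 ± 0.074 in fed and fasted HFD livers, and its log2 change with fasting was -0.31 in CD, with overlap (exact permutation p = 0.2, adjusted p = 0.267), and 0.45 in HFD, where every fasted library lay above every fed one (exact permutation p = 0.0286, adjusted p = 0.0572). The average of these opposite values was 0.07 (exact permutation p = 0.701).

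The nearest relatives of the members that act on saturated and monounsaturated chains, Elovl6 and Scd1, were followed as well. Elovl6, the elongase that turns palmitate into stearate, fell with fasting in CD by 1.94 on the log2 scale (adjusted p = 9.83e-05) and in HFD by 0.84 (adjusted p = 0.0475). Scd1 fell by 2.96 in CD (adjusted p = 0.00403) and had -0.78 in HFD (adjusted p = 0.442). With HFD in fed mice, Scd1 (-2.48, adjusted p = 0.0279) and Elovl6 (-2.01, adjusted p = 0.000381) fell as well. There Fads1, Fads2 and Elovl2 had no call, while Elovl5 had -0.82 (adjusted p = 0.0544 with edgeR and 0.0121 with DESeq2). Elovl6 was lower on HFD in fasted mice too (-0.90, adjusted p = 0.0377). All 7 genes of saturated fatty acid synthesis fell with fasting in CD (11.5% of all genes), among them Fasn, fatty acid synthase (-3.44, adjusted p = 1.2e-07), and Thrsp, a lipogenic protein (-5.72, adjusted p = 3.97e-05). In HFD, 4 of the 7 fell (4.07% of all genes), including Fasn (-1.47, adjusted p = 0.000444) and Me1, malic enzyme (-1.07, adjusted p = 0.00718), and 5 of the 7 had a positive interaction, beside 1.23% of all genes (Fasn 1.97, adjusted p = 0.00287 and Acss2, acetyl-CoA synthetase, 1.99, adjusted p = 0.0122). Thrsp had the largest interaction of the list (4.59, adjusted p = 0.0132) and was higher on HFD in fasted mice (3.07, adjusted p = 0.00863). With HFD in fed mice 6 of the 7 fell (4.22% of all genes), among them Acss2 (-2.21, adjusted p = 0.000238) and Acly, ATP citrate lyase (-1.77, adjusted p = 0.000187). The median log2 change of this list was -2.297 with fasting in CD, beside -0.28 for the 9 members.

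**Figure D5:**
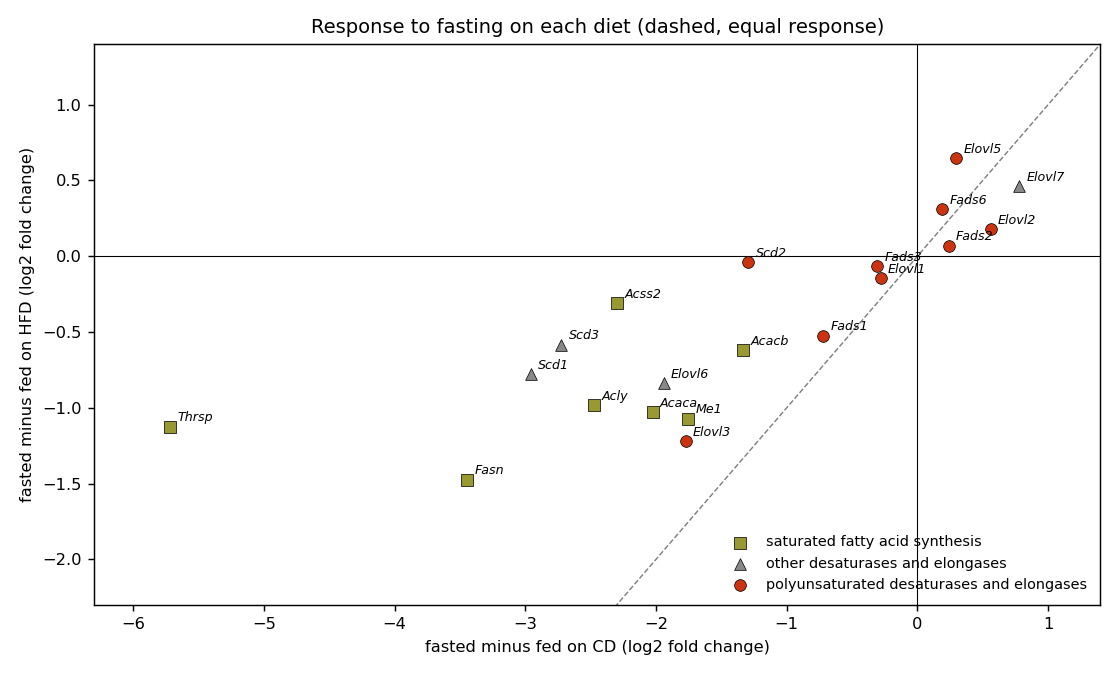
Log2 fold change with fasting on CD (horizontal axis) against HFD (vertical axis) for the 9 genes (circles), the tested other desaturases and elongases (triangles) and the 7 genes of saturated fatty acid synthesis (squares), with a dashed line of equal response. Squares lie to the left, from -1.33 for Acacb down to -5.72 for Thrsp, whereas Fads1, Fads2, Fads3, Fads6, Elovl1, Elovl2 and Elovl5 lie between -0.72 and 0.65 on both axes. Elovl3 lies among the squares, and Scd2 lies at -1.29 on the horizontal and -0.04 on the vertical axis.

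Elongation needs 3 further enzymes in each cycle, a ketoreductase, a dehydratase and a reductase. Of 6 such genes, Hacd1 and Hacd3, dehydratases, rose with fasting in CD and Tecr, the reductase, fell, where 13.7% of all genes rose and 11.5% fell. Hacd3 rose by 0.96 on the log2 scale in CD (153.8 ± 4.5 to 298.8 ± 40.8 CPM, adjusted p = 0.000101) and by 0.50 in HFD (adjusted p = 0.0241). Hacd1 rose by 0.53 in CD (adjusted p = 0.000624). Tecr fell by 0.36 with fasting in CD (adjusted p = 0.0417) and by 0.46 with HFD in fed mice (adjusted p = 0.0336).

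Desaturases draw electrons from cytochrome b5 and its reductase. Of 5 tested genes of this kind, 2 fell with fasting in CD and none rose, beside 11.5% and 13.7% of all genes. Cyb5b, the outer mitochondrial cytochrome b5, fell by 1.61 on the log2 scale (611.3 ± 75.6 to 200.1 ± 41.7 CPM, adjusted p = 8.06e-05) and in HFD by 0.69 (adjusted p = 0.0446). Cyb5r3, the main cytochrome b5 reductase, fell by 1.499 in CD (599.5 ± 82.2 to 212.1 ± 17.5 CPM, adjusted p = 5.78e-06), had -0.38 in HFD (adjusted p = 0.0822), and fell by 0.87 with HFD in fed mice (adjusted p = 0.00147). Its response to fasting differed between the diets (interaction 1.115, adjusted p = 0.0107). Cyb5a, the microsomal form that serves the desaturases, rose by 0.45 with fasting in HFD (adjusted p = 0.0415) and had 0.32 in CD (adjusted p = 0.0832).

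The last step of docosahexaenoic acid synthesis is a round of peroxisomal chain shortening. Of 12 genes of that pathway, 8 rose and 1 fell with fasting in CD (13.7% and 11.5% of all genes), and 4 rose in HFD (4.78%). Ehhadh, the peroxisomal bifunctional enzyme, rose by 3.15 on the log2 scale in CD (adjusted p = 1.62e-05), had 0.92 in HFD (adjusted p = 0.0699) and had a negative interaction (-2.24, adjusted p = 0.0165), with a lower level on HFD in fasted mice (-1.22, adjusted p = 0.025). Acaa1b, a peroxisomal thiolase, rose by 1.21 in CD (adjusted p = 0.000347). Eci2, an isomerase of unsaturated chains, was higher with HFD in fed mice (0.96, adjusted p = 0.00174) and had a negative interaction (-0.84, adjusted p = 0.047).

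Genes that activate, esterify or export polyunsaturated chains had 3 of 11 members higher and 2 lower with fasting in CD, which is not far from the shares of all genes (13.7% and 11.5%). Mfsd2a, a transporter of docosahexaenoic acid in lysophospholipids, rose by 1.61 on the log2 scale in CD (95.1 ± 36.5 to 290.9 ± 103.2 CPM, adjusted p = 0.00736) and had 0.21 in HFD (adjusted p = 0.761). Acsl1, an acyl-CoA synthetase, rose by 1.10 in CD (adjusted p = 0.00572), and its relative Acsl3 fell by 0.82 with HFD in fed mice (adjusted p = 0.017). Of 10 tested genes of release and oxygenation, 1 rose and 1 fell with fasting in CD, near the shares of all genes. Ephx2, the soluble epoxide hydrolase that clears epoxides of polyunsaturated fatty acids, rose by 1.16 with fasting in CD (adjusted p = 0.000218) with a negative interaction (-0.93, adjusted p = 0.0474), and Ptgs1, a cyclooxygenase, fell by 0.52 (adjusted p = 0.0117). Pla2g6, a phospholipase, rose by 0.51 with fasting in HFD (adjusted p = 0.0165) and was higher on HFD in fasted mice (0.59, adjusted p = 0.00945). Alox5ap of the same list also rose with fasting in HFD (0.62, adjusted p = 0.0437), where 4.78% of all genes rose.

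Among 14 known regulators, 3 fell and 1 rose with fasting in CD, where 11.5% of all genes fell and 13.7% rose, so that the list as a whole did not stand far from all genes. Srebf1, which encodes SREBP-1, fell from 175.0 ± 9.3 to 48.6 ± 18.3 CPM (log2 -1.85, adjusted p = 2.79e-05) and, in HFD, from 234.5 ± 37.7 to 112.2 ± 22.3 CPM (-1.06, adjusted p = 0.00624). In fasted mice it was higher on HFD by 1.21 (adjusted p = 0.00512), a comparison in which no member passed the test. Insig1, a sterol-responsive inhibitor of SREBP processing, fell by 2.08 in CD (adjusted p = 2.69e-05) and by 1.19 with HFD in fed mice (adjusted p = 0.0058), with a positive interaction (1.51, adjusted p = 0.0241). Scap, its partner in SREBP transport, fell by 0.60 with HFD in fed mice (adjusted p = 0.0119), and Pparg rose by 0.95 with fasting in HFD (adjusted p = 0.0156). Ppara had 0.37 in CD and 0.41 in HFD (adjusted p = 0.068 and 0.0786). Because Elovl3 is more highly expressed in male mouse liver, male-biased genes were followed too: 5 of 11 fell with fasting in CD (11.5% of all genes), including Hsd3b5 (-5.43, adjusted p = 0.00105) and Selenbp2 (-3.92, adjusted p = 0.00226), and 4 of 11 fell in HFD (4.07% of all genes). With HFD 2 fell in both feeding states, beside 4.22% of all genes in fed and 4.65% in fasted mice, Cyp4a12b (-1.23 in fed mice, adjusted p = 0.0395, and -1.37 in fasted mice, adjusted p = 0.0251) and Ugt2b38 (-0.64, adjusted p = 0.0308, and -0.92, adjusted p = 0.00724), both with close paralogs that may share reads. Of 7 tested female-biased genes, 2 rose with fasting in CD (13.7% of all genes), Acot3 (3.84, adjusted p = 0.000281) and Cux2 (3.73, adjusted p = 0.00177), and none did in HFD (4.78%). Acot3 had a negative interaction (-3.07, adjusted p = 0.0412). With HFD, 3 rose in fed (3.28% of all genes) and in fasted mice (3.05%), Cyp2b9, Cyp2b13 and Cyp2a4, which have close paralogs as well, and in fasted mice Cux2 fell by 3.33 on the log2 scale (adjusted p = 0.0128).

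Genes with the most similar pattern to a member were named by the highest Pearson's r of log2 level over the 16 libraries, among 15066 other genes, as a description without a test. For Elovl3 they were Cyp27a1 (r = 0.93), Ganab (0.93) and Spag7 (0.92). For Fads1 they were Fam83d (0.91), Arpc1b (0.86) and Ptprk (0.86), and for Elovl5 Clint1 (0.93), Lipa (0.91) and Hspa1b (0.91). For Scd2 they were Ltbp4 (0.93), Nbea (0.89) and Tmsb4x (0.88). For Fads2 they were Gm23130 (0.85), Rhoc (0.84) and Tmem86a (0.83), for Elovl2 Itih2 (0.88), 3930402G23Rik (0.87) and Kif21a (0.86), and for Fads6 Pold3 (0.90), Mfsd12 (0.89) and Add1 (0.89). For Elovl1 they were Fkbp11 (0.90), Neu3 (0.89) and Jpt1 (0.88).

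Several libraries deviated from their group over most members. In CD fed 1, 7 of the 9 genes lay above the group mean, by an average of 0.44 on the log2 scale over all 9, and in HFD fed 4, 8 of 9 lay above it, by 0.24 on average. Below their group were CD fed 3 (1 of 9 above the mean, average -0.25), CD fed 4 (2 of 9, -0.24) and HFD fast 2 (2 of 9, -0.22). The hepatocyte marker sum was highest in CD fed 1 among the CD fed and in HFD fed 4 among the HFD fed libraries. It was also highest in HFD fast 2 (103500 CPM) among the HFD fast libraries, although most members lay below the group mean there. Among the CD fast libraries it was highest in CD fast 3 (111100 CPM), where 3 of 9 members lay above the group mean. The sum was at least 72020 CPM in every library. Of 6 exocrine pancreas markers, Amy2a5 was at 0 in all libraries. The other 5 summed to 14.4 to 23.5 CPM in CD fed and 6.19 to 12.1 CPM in CD fast livers. On HFD they summed to 10.7 to 19.2 CPM in fed and 6.30 to 9.20 CPM in fasted livers, without overlap on either diet. Of 2 tested genes, 2 were lower with fasting in CD (11.5% of all genes) and 1 in HFD (4.07%). The part of this in the members' levels was not tested.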

How the data were processed

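Liver RNA of 16 mice was sequenced by the authors from poly(A)-enriched libraries (NEBNext Ultra II, paired ends). Per the methods and labels, reads were aligned to GRCm38 with TopHat2 2.0.11 in first-strand mode and counted with featureCounts. The annotation release and the strand setting of counting are not given in the sources used here. The deposited table holds whole-number counts per Ensembl gene, without normalization by the authors. Of its 46078 genes, 45143 were matched to a symbol, with positions and exon lengths from GENCODE vM21. No 2 libraries of a group agreed within sampling noise (24 pairs, lowest chi-square 34.6 per gene). At these depths 3 counts correspond to 0.0536 to 0.0767 CPM, a limit that covers counting error only. Each library is 1 mouse.

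The main analysis used edgeR 4.0.16 (R 4.3.3) with filterByExpr (15075 genes kept), scaling by trimmed mean of M-values (TMM) and a model with 1 mean for each of the 4 groups (12 residual degrees of freedom). Quasi-likelihood tests of 5 contrasts were adjusted by Benjamini-Hochberg, with a threshold of 0.05. The 2 averaged contrasts and the ratios were added after the values were seen, and their p-values do not cover that choice. CPM values are TMM-scaled, log2 CPM used a prior count of 2, and CPM per kb used the merged exon length. Alternatives were DESeq2 1.42.0, limma-voom (limma 3.58.1), other scalings and filters, a fit restricted to the groups of a contrast, a block for the replicate number, stricter thresholds and leaving out each library. The procedure was tested on simulated data. The members and gene lists were chosen with earlier results of these data known. Every member is named, and a gene of another list is named if its adjusted p was under 0.05 and its log2 fold change was among the 2 largest of its list in a contrast, or if it was Scd1, Elovl6, Srebf1, Fasn or Hsd3b5. Me1, Hacd1, Cyb5a, Ptgs1, Alox5ap, Ppara and Cyp2b13 were named after their values were seen. Some genes that the rule selects are not reported here. Upstream sequences came from RefSeq (GRCm38.p6).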

Additional observations from a re-analysis of the deposited data

Results flagged for a closer look

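Within the 36 combinations of 9 genes and 4 groups, 3 libraries stood far from the other 3 of their group by Dixon's ratio of gap to range, past its 95% critical value, where chance gives about 1 in 20. Elovl2 in library CD fed 1 was at 1049 CPM, beside a group median of 526.75 CPM (ratio 0.903). Elovl5 in library HFD fast 2 was at 372.6 CPM, below a group median of 707.0 CPM (ratio 0.937), in the library with the highest adipocyte markers. Fads1 in library HFD fed 4 was at 675.9 CPM, beside a median of 449.35 CPM (ratio 0.935). With HFD fed 4 left out, the log2 difference of Fads1 with fasting in HFD was -0.35. The Fads1 to Fads2 ratio of HFD fed 4, 0.755, lay within the range of the other libraries of its group, and its Fads2 level was the highest of the group.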

How the results depend on the processing

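Of the 9 members, 4 passed with fasting in CD. At an adjusted p under 0.01 there were 2 (Elovl3 and Fads1), with an absolute log2 fold change of at least 1 there were 2, with the replicate block 3 (Scd2 lost, adjusted p = 0.059), and without single libraries 2 to 4. With fasting in HFD (1 in the reported fit) there were 2 with DESeq2, 2 with the replicate block (Fads6 added, log2 0.31, adjusted p = 0.0482), 0 with only the groups compared, 0 at 0.01 and 0 to 1 without single libraries. With HFD in fed mice (0 in the reported fit) there was 1 with DESeq2, 1 without the filter and 0 to 1 without single libraries. For fasting averaged over diets (4 in the reported fit) there were 2 with total count scaling, 2 at 0.01 and 1 at a log2 fold change of at least 1, 5 with DESeq2 and 5 with the CPM filter (both adding Elovl5), and 3 to 5 without single libraries. For HFD averaged over states (1 in the reported fit) there were 0 with total count scaling, 0 at 0.01, 0 at a log2 fold change of at least 1 and 0 to 1 without single libraries. The labels do not say that the replicate numbers pair libraries across groups. Of 24 same-numbered pairs, 8 correlated above 0.1 (range -0.243 to 0.662, the highest for HFD fed 4 and HFD fast 4). Differently numbered pairs were not compared, so these values cannot decide whether the numbers pair the libraries. Signs of small differences turned as follows. With total count scaling, which shifts all genes of a contrast together, this follows from the shift, and otherwise the cause was not tested. Scd2 with fasting in HFD was 0.016 with total counts, 0.007 with the replicate block and -0.344 to 0.299 without single libraries. With HFD in fasted mice, Fads1 was 0.006 with limma-voom, 0.16 with total counts, 0.037 with upper quartile scaling, 0.011 with a CPM filter, 0.009 with the replicate block, 0.00027 with only the groups compared and -0.092 to 0.089 without single libraries. There Fads2 was 0.155, 0.029 and 0.003 with total counts, upper quartile and CPM filter and -0.128 to 0.103 without single libraries, Fads6 was 0.054 with total counts, and Elovl3 was -0.31 to 0.093 without single libraries. Total count scaling moved the median of all genes in that contrast from 0.013 to 0.172, with 88.1% in place of 39.6% of calls higher, and the share higher was 44.3% in place of 54.4% for fasting in CD, 67.6% in place of 54% for fasting in HFD and 68.8% in place of 43.8% for HFD in fed mice, 84.7% in place of 41.5% for HFD averaged over states, with 69.5% in place of 47.4% of interactions positive. Without single libraries, fasting in HFD gave Fads2 -0.031 to 0.279 and Fads3 -0.187 to 0.086, HFD in fed mice gave Fads2 -0.052 to 0.363, Fads3 -0.258 to 0.014, Elovl2 -0.331 to 0.142 and Scd2 -0.881 to 0.048, and the interaction of Fads2 was -0.374 to 0.041. The lowest counts were those of Scd2 (85 to 872 per library) and Fads3 (74 to 144).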
